A study of Mus musculus with 4 samples.

Results

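The TGF-beta ligand, receptors and SMADs were followed here as 10 genes chosen by symbol, out of 23284 gene rows in the count tables. They are the ligand Tgfb1, the receptors Tgfbr1, Tgfbr2, Tgfbr3 and Eng, the signal transducers Smad2, Smad3, Smad4 and Smad7, and the SMAD corepressor Skil. RNA was sequenced from leukemic cells of C57BL/6 mice, sorted for high c-Kit, a receptor of immature blood cells. In one group the cells came from 2 Msi2 -/- mice, which lack the RNA-binding protein Musashi 2, and in the other from 2 Msi2 flox/flox mice (control), whose alleles are flanked by loxP sites. The study's title places both groups in a leukemia driven by MLL. The sources used here do not name the Cre driver, an inducing agent, or the age or sex of the mice. All 10 genes had enough counts to be tested, and 13215 genes were tested in all.

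TGF-beta is a secreted protein that binds a complex of type II receptor (Tgfbr2) and type I receptor (Tgfbr1). Co-receptors, betaglycan (Tgfbr3) and endoglin (Eng), help present ligands of the family. The active type I receptor phosphorylates Smad2 and Smad3, which enter the nucleus with Smad4, while Smad7 and Skil restrain the signal and are themselves induced by it. In blood formation the pathway is known to hold stem cells in quiescence, and Musashi 2 has been linked to TGF-beta signalling in mouse blood stem cells. Endoglin marks endothelium and, in mice, also long-term blood stem cells.

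Gene counts totalled between 72273679 and 87564774 per library, a depth at which 3 counts equal between 0.0343 and 0.0412 CPM (counts scaled to library size and composition). Msi2 itself had 8 and 17 counts in the Msi2 -/- libraries, against 2804 and 3562 in the controls. Progenitor and leukemia genes used to check the cell type (Kit, Cd34, Flt3, Myb, Hoxa9, Hoxa10, Meis1 and Mpo) summed to 3104 and 3157 CPM in Msi2 -/- and 5158 and 6069 CPM in control libraries. Mpo, a granule enzyme gene, made up most of that sum (2117 and 2159 CPM in Msi2 -/-, 4001 and 4953 CPM in controls). Of the 8 genes 4 lay on the higher side and 4 on the lower. An unadjusted edgeR p under 0.05 was reached by 0 higher and 3 lower genes (Mpo, Myb and Flt3), beside 6.69% and 6.17% of all tested genes. Kit was at 68.1 and 57.1 CPM in Msi2 -/- and 50.4 and 51.9 CPM in controls. Cd34 was higher through 1 library only, with 79.8 and 7.02 CPM in Msi2 -/- and 20.3 and 43.5 CPM in controls. Of 6 T cell and 6 B cell markers, 5 of each stayed under 1 CPM in every library, Cd3e, Cd3g, Cd2, Cd8a, Pax5, Ebf1 and Ms4a1 without any counts. The exceptions were Lck, below 10 CPM in every library, and Cd79b (20.4 and 18.5 CPM in Msi2 -/-, 26.1 and 26.3 CPM in controls). Xist, a transcript of the inactive X chromosome, had 0.469 and 0.624 CPM in the Msi2 -/- libraries and 1455 and 654 CPM in the controls. Summed Y-linked transcripts (Uty, Kdm5d, Eif2s3y and Ddx3y) came to 225 and 242 CPM in the Msi2 -/- libraries and to 41.1 and 184 CPM in the controls, so transcripts of both sex chromosomes were present in the controls. Xist therefore divided the groups as genotype did, whereas the Y-linked transcripts mainly set control 1 apart. Kdm5d overlapped between the groups, with 31.2 and 35.2 CPM in Msi2 -/- and 6.83 and 32.7 CPM in controls. The parts of genotype and sex in any difference below cannot be told apart.

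Eng was the member that differed most between the groups. To show the region where its transcription begins, the sequence from 250 bases before to 50 bases after the annotated start is printed from RefSeq, together with that of Fstl1, a follistatin-like secreted protein gene that also lay far lower in the Msi2 -/- cells. Capitals mark AGGAA or its reverse complement, the core letters of sites for ETS factors, a family that includes regulators of Eng in mouse blood and endothelial cells. The build of both is GRCm38.p6, which is not the build of the counts; Eng is at chr2:32646345-32646644 and Fstl1 at chr16:37776805-37777104, each on the plus strand.
Eng: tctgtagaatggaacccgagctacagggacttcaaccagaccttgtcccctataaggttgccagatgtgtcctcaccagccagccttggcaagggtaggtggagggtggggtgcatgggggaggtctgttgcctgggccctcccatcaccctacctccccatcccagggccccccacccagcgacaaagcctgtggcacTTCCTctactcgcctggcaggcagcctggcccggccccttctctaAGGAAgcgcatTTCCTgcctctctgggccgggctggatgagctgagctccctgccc
Fstl1: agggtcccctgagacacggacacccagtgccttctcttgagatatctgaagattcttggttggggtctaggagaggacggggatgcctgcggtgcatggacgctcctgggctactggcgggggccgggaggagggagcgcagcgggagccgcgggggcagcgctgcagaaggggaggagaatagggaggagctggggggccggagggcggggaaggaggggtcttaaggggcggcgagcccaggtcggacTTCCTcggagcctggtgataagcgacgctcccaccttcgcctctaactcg
AGGAA was found 3 times in the Eng sequence and once in that of Fstl1, and 66.7% of 32851 promoter sequences of the same length held it on either strand. CAGAC, the letters of a SMAD binding element, occurred 2 times in the Eng sequence and was absent from that of Fstl1, against 49.6% of all promoters with a match. AGATAA, a form of the site for blood-forming factors of the Gata2 family, was found in neither, and 11.2% of promoters held it. The form TGATAA, which the Fstl1 sequence holds, was not counted. GGGCGG, a GC box, occurred 2 times in the Fstl1 sequence and not in that of Eng, and 35.7% of promoters held it. Each motif was searched on both strands and counted whether or not it overlapped another, and a match describes letters only. Promoter sequences were matched for 5 of the 10 genes, among which Tgfbr2 and 1 of the 2 sequences of Tgfbr1 each held AGGAA 3 times and CAGAC once, as many AGGAA matches as Eng.

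With edgeR's quasi-likelihood model, the main test, 0 of the 10 genes reached an adjusted p under 0.05, and 0.00757% of all genes did, a single gene that was not a member. At an unadjusted p under 0.05 there was 1 member higher (Smad2) and 2 lower (Eng and Tgfbr1), beside 6.69% of all tested genes higher and 6.17% lower. By DESeq2, 0 members passed in the higher direction and 1, Eng, in the lower, beside 3.12% and 2.73% of genes with an adjusted p, 5.84% in all. The libraries of the 2 groups did not overlap for 6 of the 10 genes, 2 higher and 4 lower in Msi2 -/-, beside 23.7% and 24.6% of all tested genes, 48.3% in sum. The median log2 fold change of the members was -0.02, and that of all tested genes was 0.00 (-0.002). Fold changes are log2, Msi2 -/- minus control, throughout.

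**Figure D1:**
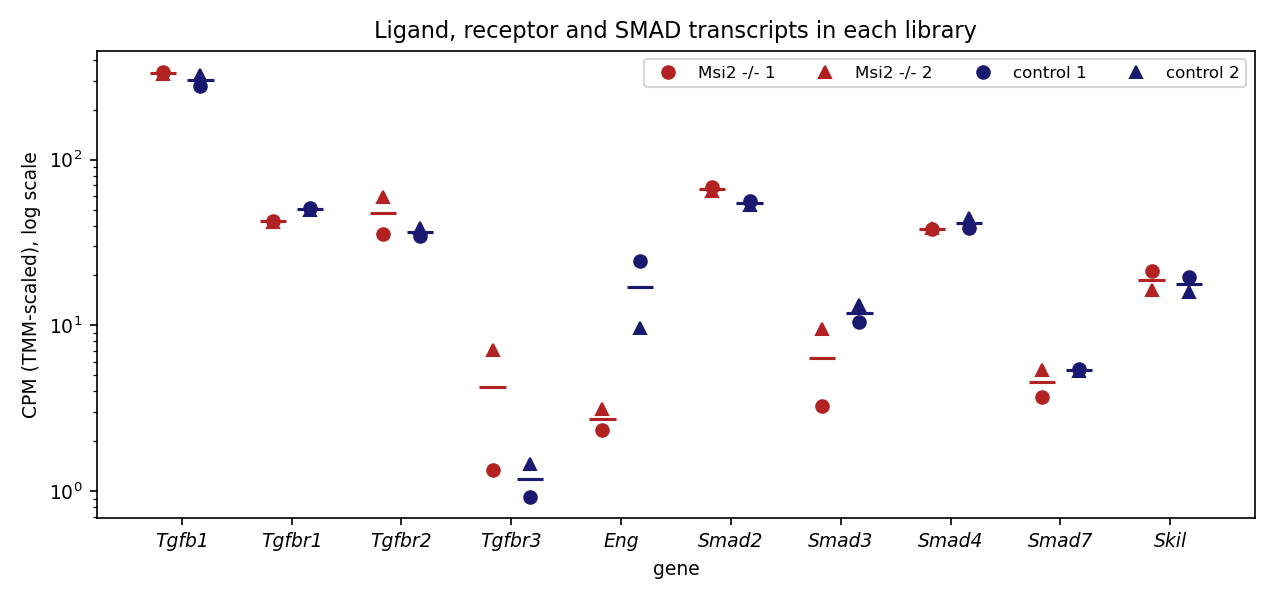
CPM of each of the 10 genes on a log axis, with Msi2 -/- libraries in red to the left of the controls in dark blue, circles for replicate 1, triangles for replicate 2 and a bar at the mean of 2 libraries. Eng stands at 2.35 and 3.11 CPM in Msi2 -/-, below 24.3 and 9.65 CPM in the controls, while most other pairs of bars lie close together.

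The ligand Tgfb1 was the most abundant transcript of the set. It had 338 and 329 CPM in the Msi2 -/- libraries, against 280 and 323 CPM in the controls. Both Msi2 -/- libraries lay just above both controls, by a log2 fold change of 0.14 (SE 0.0951, 95% interval -0.11 to 0.40), which did not pass edgeR's test (adjusted p = 0.566). Per kilobase of exon, a scale on which different genes can be compared, Tgfb1 averaged 66.1 ± 1.35 CPM per kb in Msi2 -/- and 59.8 ± 6.15 in control cells (SD, n = 2 each). The next member on that scale was Smad4, at 10.3 ± 0.067 CPM per kb in Msi2 -/- and 11.2 ± 1.01 in controls. In the controls Tgfbr1 (7.70 ± 0.197), Smad2 (6.23 ± 0.216), Tgfbr2 (4.47 ± 0.339), Eng (4.19 ± 2.56), Smad3 (2.14 ± 0.338), Skil (1.83 ± 0.267), Smad7 (1.18 ± 0.0208) and Tgfbr3 (0.182 ± 0.0572 CPM per kb) followed. The control libraries of Eng, at 6.00 and 2.38 CPM per kb, reached from above the mean of Tgfbr2 to the higher control value of Smad3, so its place in that order was not fixed within the spread, and Skil and Smad3 also overlapped. In the Msi2 -/- cells Eng averaged 0.673 ± 0.133 and Tgfbr3 0.645 ± 0.624 CPM per kb, the lowest means of the set. This order was not fixed within the spread either. Tgfbr3 reached 1.09 CPM per kb in Msi2 -/- replicate 2, above Smad3 (0.588) and Smad7 (0.817) in replicate 1, and Eng had 0.579 and 0.768.

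The type I receptor Tgfbr1 was slightly lower in the Msi2 -/- cells. Its libraries had 42.6 and 42.2 CPM in Msi2 -/-, against 51.2 and 49.4 CPM in controls. The replicates of each group were nearly equal and the groups did not overlap. The log2 fold change was -0.25 (SE 0.08, 95% interval -0.46 to -0.03) with an adjusted p of 0.362 by edgeR and 0.133 by DESeq2. Tgfbr2, the type II receptor that binds the ligand, had 35.5 and 59.3 CPM in Msi2 -/- libraries, against 34.6 and 38.5 CPM in controls. Msi2 -/- replicate 1 lay between the controls and replicate 2 above both. Its log2 fold change was 0.37 (SE 0.27, 95% interval -0.35 to 1.10, edgeR adjusted p = 0.595), and -0.04 without Msi2 -/- replicate 2.

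Of the co-receptors, endoglin was lower in both Msi2 -/- mice. Eng had 205 and 239 counts in the Msi2 -/- libraries, against 1969 and 703 in the controls, or 2.35 and 3.11 CPM against 24.3 and 9.65 CPM. Both Msi2 -/- libraries lay below both controls, and the controls differed from each other 2.52-fold, a larger ratio than between the controls for 98% of the 1321 tested genes of like level. The log2 fold change was -2.64 (SE 0.525, 95% interval -4.06 to -1.22). Eng ranked 261 of 13215 by edgeR's p (unadjusted p = 0.00612, adjusted p = 0.293) and was called by DESeq2 (adjusted p = 1.82e-05). By edgeR's likelihood ratio test the adjusted p was 0.00129, and by limma-voom it was 0.34. With control 1 left out the log2 fold change of Eng was -1.82 (DESeq2 adjusted p = 0.027), and with control 2 left out -3.15 (DESeq2 adjusted p = 3.14e-11). Without Msi2 -/- replicate 1 the value was -2.44 (DESeq2 adjusted p = 0.000132), and without replicate 2 it was -2.85 (DESeq2 adjusted p = 1.93e-06). For the same 4 omissions edgeR's adjusted p ran from 0.181 to 0.889. A fit with a library left out has 1 mouse in a group, which is assumed to vary as the other group does, so these values do not measure the spread of the lone mouse's group.

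Several measurements stood beside this difference. In sorted bulk cells, fewer cells with endoglin and less endoglin RNA per cell cannot be told apart. Endothelial cells also express Eng, and of 8 endothelial markers 6 stayed under 1 CPM in every library. Cdh5, Kdr, Tek, Emcn, Esam and Cldn5 together summed to 0.263 and 0.117 CPM in Msi2 -/- and 0.21 and 0.151 CPM in control libraries, and Emcn had no counts at all. The whole list, led by Pecam1, which blood cells express too, summed to 27.0 and 172 CPM in Msi2 -/- and 62.7 and 75.5 CPM in control libraries. Vwf, which platelets and megakaryocytes also express, had 2.13 and 6.23 CPM in Msi2 -/- and 3.65 and 2.55 CPM in control libraries. Xist followed the same order of libraries as Eng, being highest in control 1 and next in control 2, and its part in the result was not tested. Exons of Eng overlap those of Fpgs, a folate enzyme gene on the opposite strand, in GENCODE M21. Fpgs had 57.8 and 43.7 CPM in Msi2 -/- and 64.3 and 62.7 CPM in control libraries (a log2 difference of -0.32 with SE 0.154, adjusted p = 0.45 by edgeR), and the rule by which shared reads were counted is unknown here.

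Tgfbr3, for betaglycan, which presents TGF-beta to its receptors, was high in a single library. It had 1.34 and 7.11 CPM in the Msi2 -/- libraries, against 0.925 and 1.45 CPM in controls. Msi2 -/- replicate 1 lay between the controls, so the groups overlapped, and replicate 2 was 5.31-fold above replicate 1. The log2 fold change of 1.83 (SE 0.878, 95% interval -0.55 to 4.20, adjusted p = 0.451 by edgeR and 0.244 by DESeq2) was 0.17 without Msi2 -/- replicate 2. The co-receptors therefore did not share a pattern over the 4 libraries.

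**Figure D2:**
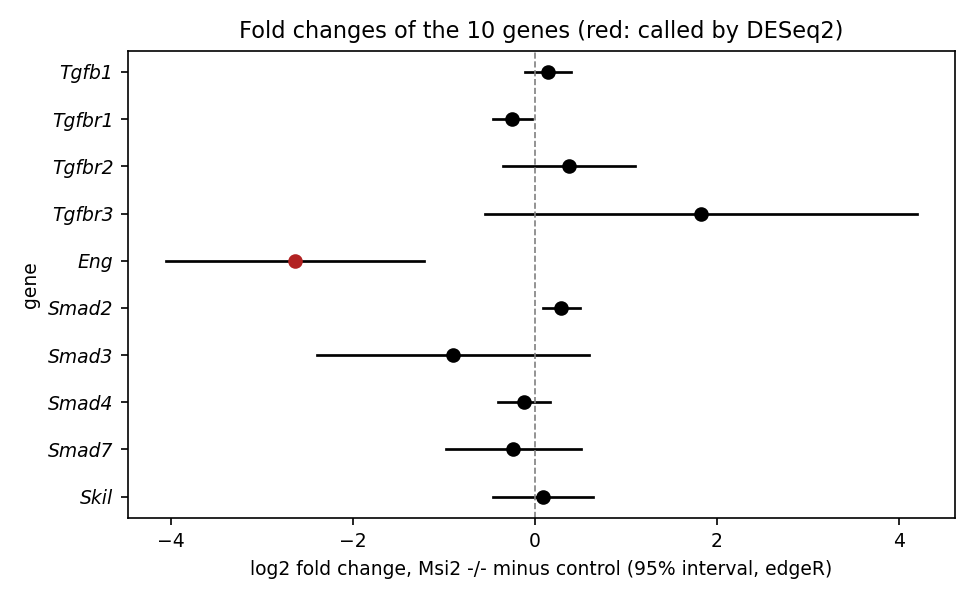
log2 fold change (Msi2 -/- minus control) of each gene by edgeR, with its 95% interval as a line; the red point marks the gene that DESeq2 called. Intervals of Eng, Tgfbr1 and Smad2 leave out 0, and that of Tgfbr3 is the widest.

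The receptor-activated SMADs lay on opposite sides of 0, and neither was called. Smad2 had 68.8 and 65.0 CPM in Msi2 -/- libraries, against 56.0 and 53.4 CPM in controls, with no overlap and little difference between replicates. Its log2 fold change was 0.29 (SE 0.0762, 95% interval 0.08 to 0.50), with an adjusted p of 0.333 by edgeR and 0.0571 by DESeq2. Smad3 had 3.26 and 9.48 CPM in Msi2 -/- libraries, against 10.5 and 13.2 CPM in controls. Both Msi2 -/- libraries lay below the controls, replicate 2 only just, and replicate 1 was 2.91-fold below replicate 2. The log2 fold change was -0.90 (SE 0.552, 95% interval -2.39 to 0.59, adjusted p = 0.541 by edgeR and 0.429 by DESeq2). It was -1.86 with Msi2 -/- replicate 2 left out (DESeq2 adjusted p = 3.12e-06, edgeR adjusted p = 0.0902) and -0.31 with replicate 1 left out.

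Smad4, the shared partner of the receptor-activated SMADs, differed little between mice. Its libraries had 38.1 and 38.5 CPM in Msi2 -/-, against 38.9 and 44.2 CPM in controls (log2 fold change -0.12, SE 0.106, 95% interval -0.40 to 0.17, edgeR adjusted p = 0.664). The inhibitory Smad7 had 3.70 and 5.39 CPM in Msi2 -/-, against 5.42 and 5.28 CPM in controls. Replicate 2 lay within the controls and replicate 1 below them, and the interval of the log2 fold change (-0.24, SE 0.276) ran from -0.98 to 0.51. The corepressor Skil had 21.3 and 16.4 CPM in Msi2 -/-, against 19.6 and 15.9 CPM in controls, so the groups overlapped. Its log2 fold change was 0.09 (SE 0.203), with a 95% interval from -0.46 to 0.63. Smad7 and Skil are direct targets of the pathway, and for both a change of 1 log2 unit in either direction lay outside the interval. Whether signalling differed between the groups was not tested.

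Between the Msi2 -/- mice, 6 of the 10 genes (Tgfbr3, Tgfbr2, Smad3, Smad7, Eng and Smad4) had more CPM in replicate 2 than in replicate 1, and 4 (Skil, Tgfb1, Smad2 and Tgfbr1) had less. The ratio between the Msi2 -/- libraries was above that of 93.8% of 1322 tested genes of like level for Tgfbr3, 93.7% of 1321 for Smad3 and 94.7% of 1321 for Tgfbr2. For Tgfbr1 and Smad4 it was above that of 5.5% of such genes. Macrophage markers, led by Emr1 and Csf1r, summed to 31.9 and 82.0 CPM in Msi2 -/- replicates 1 and 2, and to 38.0 and 51.0 CPM in controls 1 and 2. Of 7 such markers with a row, 3 stayed under 1 CPM everywhere, and C1qc had no counts. Late neutrophil genes summed to 1397 and 2225 CPM in Msi2 -/- and 1024 and 677 CPM in control libraries. S100a8, S100a9 and Ngp carried most of the neutrophil sum, while Cxcr2 and Mmp8 had log2 fold changes of -1.63 and -1.81. Both sums were higher in Msi2 -/- replicate 2 than in replicate 1, as Tgfbr3, Tgfbr2 and Smad3 were, but single markers were not: Ltf had 21.3 and 9.16 CPM and Vcam1 1.01 and 0.494 CPM in Msi2 -/- replicates 1 and 2. Larger differences between Msi2 -/- replicates 1 and 2 were seen for the progenitor marker Cd34 (79.8 and 7.02 CPM) and, the other way, for Pecam1 (24.6 and 166 CPM). The part of cell composition in the members was not tested.

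**Figure D3:**
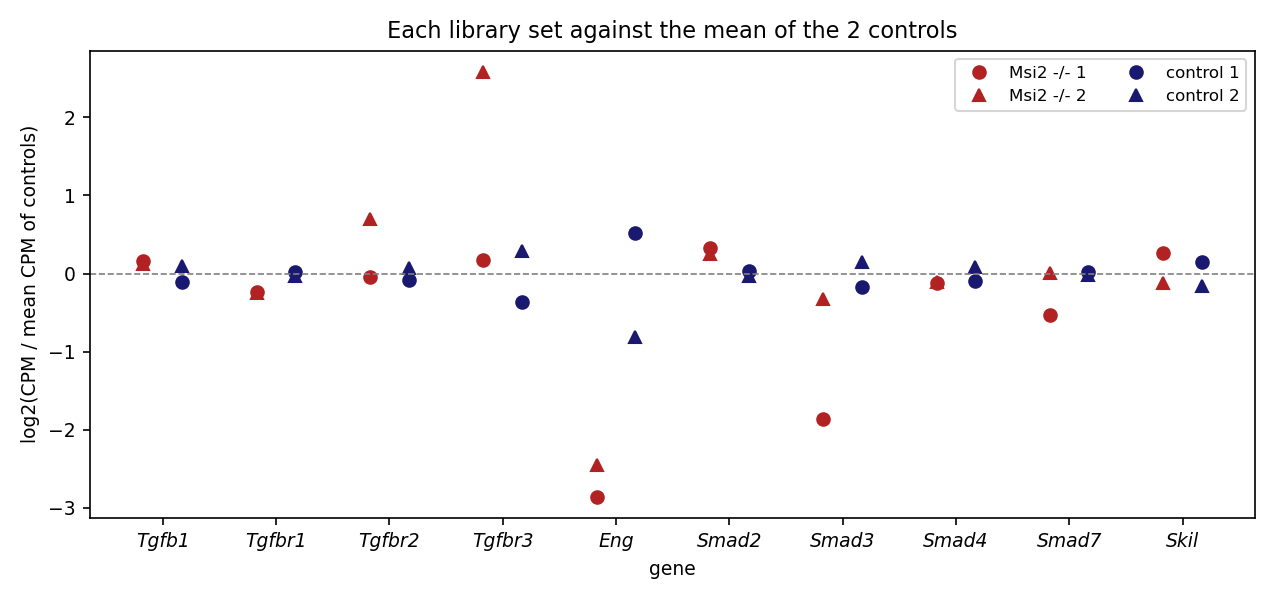
log2 of each library's CPM over the mean CPM of the 2 controls, with Msi2 -/- libraries in red left of controls in dark blue, circles for replicate 1 and triangles for replicate 2. Both Msi2 -/- points of Eng lie far below 0, whereas for Tgfbr3 the triangle alone and for Smad3 mainly the circle departs.

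Other genes of the pathway were taken from lists of 94 symbols, of which 92 were in the tables and 68 tested. With p adjusted over all genes, edgeR called 0 of them in either direction. Its unadjusted p was under 0.05 for 3 higher and 5 lower genes, beside 6.69% and 6.17% of all tested genes. Of 71 with an adjusted p by DESeq2, 2 were called higher and 2 lower, beside 3.12% and 2.73% of all genes, so neither count stood far from that of all genes. The median log2 fold change over these genes was 0.05. The genes under an unadjusted 0.05 were Thbs1, Tgm2 and Cdkn1a on the higher side and Tgfb3, Nog, Fstl1, Zeb1 and Zeb2 on the lower. DESeq2's lower calls, Nog and Fstl1, both encode secreted proteins that bind ligands of the BMP branch. Nog, for the BMP antagonist noggin, had 0 counts in both Msi2 -/- libraries, against 74 and 105 counts in the controls. Set against a floor of 3 counts per library, it was at least 32.1-fold lower in the Msi2 -/- cells (adjusted p = 0.271 by edgeR and 1.48e-05 by DESeq2). DESeq2's call of Nog was lost without control 2 (adjusted p = 0.271) and kept with each other library left out. Nog lies close to Msi2 on the same chromosome, separated by 6 tested genes in RefSeq's GRCm38.p6 annotation, whereas 0 of the 10 genes share the chromosome of Msi2.

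Fstl1 had 0.492 and 0.208 CPM in the Msi2 -/- libraries, against 4.06 and 4.95 CPM in controls. Both Msi2 -/- libraries lay far below both controls, with a log2 fold change of -3.67 (SE 0.532, adjusted p = 0.271 by edgeR and 2.48e-08 by DESeq2). Its log2 fold change by DESeq2 was -4.43 without Msi2 -/- replicate 1. With each library left out, its adjusted p ran from 2.54e-10 to 0.0496 by DESeq2 and from 0.0715 to 0.93 by edgeR. Of 7 tested activin and BMP ligands and antagonists, the other 5 were not called, and Inhba, an activin subunit, had the smallest p among them (log2 fold change 0.78, SE 0.44, edgeR adjusted p = 0.503). Among ligands of TGF-beta and the proteins that store and release it, 0 of 9 passed by either tool. Thbs1, for thrombospondin 1, which can activate latent TGF-beta, had 184 and 279 CPM in Msi2 -/-, against 29.7 and 101 CPM in controls. The groups did not overlap, but the controls differed widely, and its log2 fold change of 1.83 (SE 0.639, adjusted p = 0.375 by edgeR and 0.221 by DESeq2) was 1.21 without control 1 and 2.97 without control 2. Tgfb3, the related ligand, had 3 and 6 counts in Msi2 -/- libraries and 44 and 12 counts in controls.

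Of the activin and BMP receptors 0 of 7 tested passed by either tool, the largest log2 fold changes below 0 being those of the activin type II receptors Acvr2b and Acvr2a, at -0.51 (SE 0.261) and -0.51 (SE 0.321). All 3 tested SMADs outside the set (Smad1, Smad5 and Smad6) had a log2 fold change below 0, and neither edgeR nor DESeq2 called any. Smad1, a BMP-activated SMAD, had 5.59 and 4.85 CPM in Msi2 -/-, against 8.41 and 6.61 CPM in controls (log2 fold change -0.52 with SE 0.232, adjusted p = 0.427 by edgeR). The inhibitory Smad6 had 19 and 21 counts in Msi2 -/- and 25 and 45 counts in control libraries. Among 21 tested SMAD partners and pathway regulators 12 lay above 0 and 9 below in log2 fold change, and neither tool called any (edgeR 0, DESeq2 0). Tgif2, a SMAD corepressor, had the smallest p on the lower side (log2 fold change -0.82, SE 0.366, edgeR adjusted p = 0.431), and Tgfbrap1, a receptor-associated protein gene, on the higher (log2 fold change 0.20, SE 0.0928, edgeR adjusted p = 0.449).

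Reported targets of TGF-beta in other tissues lay on both sides of 0. Of 21 tested, 14 were above 0 and 7 below in log2 fold change, beside 6574 above and 6641 below over all tested genes. Among them edgeR called 0, and DESeq2 called 2 of 22 higher and 0 lower, beside 3.12% and 2.73% of all genes. Tgm2, for transglutaminase 2, had 24.9 and 51.5 CPM in Msi2 -/-, against 6.72 and 9.67 CPM in controls (log2 fold change 2.22, SE 0.43, adjusted p = 0.293 by edgeR and 5.94e-06 by DESeq2). By DESeq2 the log2 fold change of Tgm2 was 1.61 without Msi2 -/- replicate 2 and 2.66 without replicate 1. With each library left out, its adjusted p ran from 4.90e-17 to 0.00531 by DESeq2 and from 0.0805 to 0.93 by edgeR. Cdkn1a, for the cell cycle inhibitor p21 and also a p53 target, had 364 and 403 CPM in Msi2 -/-, against 244 and 149 CPM in controls (log2 fold change 0.97, SE 0.257, adjusted p = 0.333 by edgeR and 0.00408 by DESeq2). DESeq2's call of Cdkn1a was lost without Msi2 -/- replicate 1 (log2 fold change 1.04, adjusted p = 0.484) and without replicate 2 (log2 fold change 0.89, adjusted p = 0.59). On the lower side Zeb1, a zinc finger repressor gene, had 0.755 and 1.77 CPM in Msi2 -/- and 5.58 and 3.29 CPM in controls (log2 fold change -1.81, SE 0.558, adjusted p = 0.352 by edgeR and 0.0524 by DESeq2). Its relative Zeb2 was at -0.27 (SE 0.0852). Id1, a widely used BMP target, had 105 and 77.9 CPM in Msi2 -/- and 90.9 and 73.8 CPM in controls, with overlap.

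**Figure D4:**
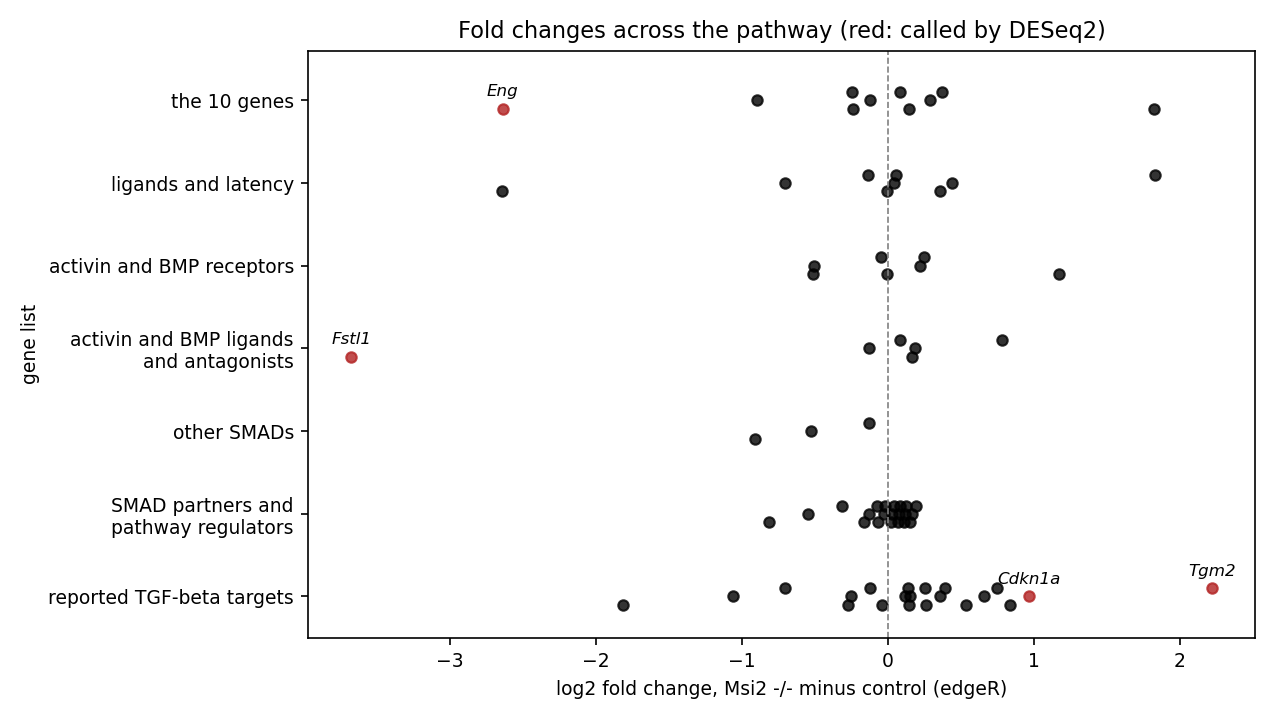
log2 fold change (Msi2 -/- minus control, edgeR) of every tested gene of each pathway list, the 10 genes at the top; red points are DESeq2 calls. Nog is left out because it has no counts in the Msi2 -/- libraries; Eng and Fstl1 stand alone on the left among the red points, and Tgm2 and Cdkn1a on the right.

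The genes whose pattern over the 4 libraries was most like that of Eng were sought among 9140 other tested genes whose log2 CPM averaged 3 or more. Likeness was the root mean square difference of log2 CPM after centring each gene. Ppic, for cyclophilin C, was nearest (0.27), followed by Acot7, an acyl-CoA thioesterase gene (0.52), and Pkib, a protein kinase A inhibitor gene (0.57). Ppic had 7.97 and 9.76 CPM in Msi2 -/- libraries, against 51.1 and 29.8 CPM in controls, with control 1 the highest as for Eng. For Acot7 the values were 8.66 and 8.48 CPM in Msi2 -/-, against 44.4 and 47.0 CPM in controls, with the 2 controls nearly equal. Pkib had 5.54 and 10.1 CPM in Msi2 -/- and 26.4 and 20.8 CPM in controls. No other member was among the nearest 10. Tgfbr3 and Smad7, with a mean log2 CPM of 0.94 and 2.30, lay below the limit of 3 and could not appear. Eng itself averaged 2.69, so genes of its own level or lower were not searched. With 4 libraries such a ranking only describes the libraries.

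**Figure D5:**
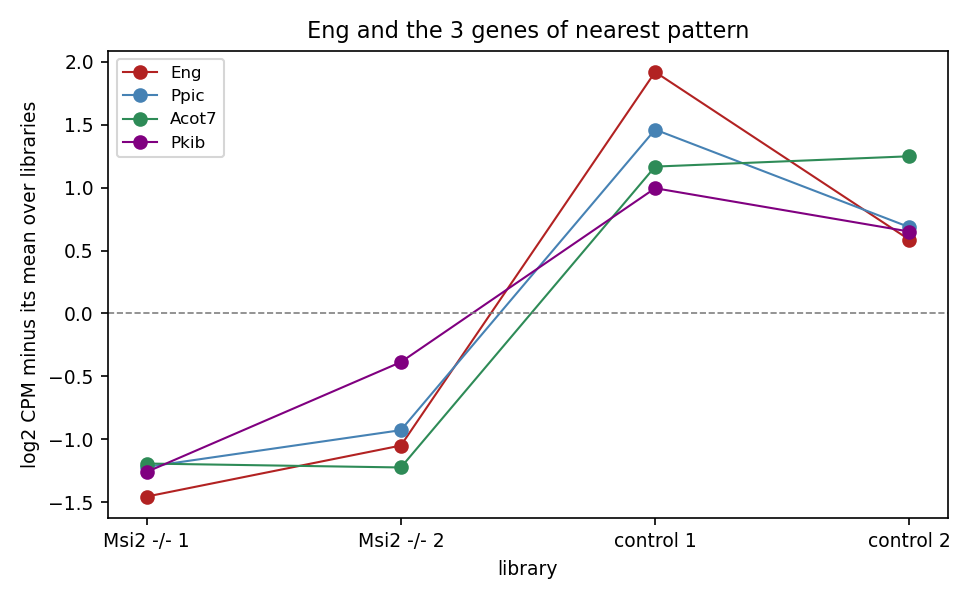
log2 CPM of Eng, Ppic, Acot7 and Pkib in each library minus the gene's mean over the 4 libraries, with the Msi2 -/- libraries on the left. All 4 genes lie below their mean in both Msi2 -/- libraries. Eng, Ppic and Pkib are higher in control 1 than in control 2, and Acot7 is slightly lower.

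Because Musashi proteins bind RNA, often at UAG in the 3′ untranslated region, these letters were counted in the longest such region of each gene in GENCODE M21. Over 11003 tested genes the median was 11.8 UAG per kb, with a middle range of 8.68 to 14.5. Eng held 8 UAG in 1108 bases (7.22 per kb), more than 16.7% of genes, and 0 of the longer motifs, UAGU preceded by G or by A. Smad2 held 91 in 6233 bases (14.6 per kb) and Tgfbr1 59 in 4154 bases (14.2 per kb), with 13 and 12 of the longer motifs. Skil had 13.6, Tgfbr2 11.7, Smad3 11.4, Tgfbr3 10.4, Smad4 10.4 and Smad7 7.64 UAG per kb, and the 135 bases of Tgfb1 held 0. These counts describe sequence and do not show binding.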

How the data were processed

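The authors deposited raw read counts per gene symbol, 1 table per library. Per the submitters' processing notes, Trimmomatic, STAR, HTSeq and DESeq were used with the build mm9; the annotation, strand setting and overlap mode are unknown here. Rows that name no gene held 19.1% to 20.1% of the counts and were left out. Groups come from the sample titles. Per the labels, each library is 1 mouse. The control libraries held transcripts of both sex chromosomes, so cells of more than 1 animal may be in them. Replicates differed beyond counting noise (a mean chi-square per gene of 125 for Msi2 -/- and 51.7 for control). Each library was therefore treated as its own replicate, though this difference does not show how many mice a library holds.

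All genes were fitted with edgeR 4.0.16 under R 4.3.3: filterByExpr (minimum count 10, total 15), TMM scaling, group as the only term, two-sided quasi-likelihood test, Benjamini-Hochberg adjustment over 13215 genes, threshold 0.05. Standard errors come from the F statistic. CPM use TMM-scaled library sizes. DESeq2 1.42.0, limma-voom (limma 3.58.1) and the edgeR likelihood ratio test were alternatives, as were RLE scaling, other filters, a replicate block and each library left out. The code was tested on simulated counts of 13215 genes, some of them given a known change. There the quasi-likelihood test made 24 false calls, limma-voom 18, the likelihood ratio test 66 and DESeq2 88. Of the genes changed 4-fold they recovered 64.2%, 62.7%, 73.1% and 71.6%. DESeq2 and the likelihood ratio test thus made more false calls than the main test there, which bears on genes that only they called. The simulated spread between libraries was the one edgeR estimated for each gene. On the real libraries the main test called 1 gene of 13215 and not Msi2 (adjusted p = 0.122 by edgeR). The simulated rates may therefore not hold for the real counts. Exon lengths and untranslated regions come from GENCODE M21 and promoters from RefSeq, both on GRCm38; 20979 of 20979 such regions followed a stop codon. The members and lists were chosen with earlier results of these data known. The text names all 10 members, the check gene Msi2, the pathway genes of smallest p per list and direction, and the 3 genes nearest to Eng; Fpgs, Xist, Y-linked genes, Id1 and single marker genes were added after their values were seen.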

Additional observations from a re-analysis of the deposited data

How the results depend on the processing

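Of 150 recomputed fold changes of the 10 genes, over 15 alternatives, 133 kept the direction and side of the threshold of edgeR's test, 9 passed the threshold and 8 reversed. The alternatives with DESeq2 and 1 library left out were chosen after seeing the data. Eng lay below 0 in all 15, from -3.15 to -1.82, and the passing values were those of Eng by the likelihood ratio test and by DESeq2 with all libraries and with each left out, and of Tgfbr2 (0.70) and Tgfbr3 (2.59) without Msi2 -/- replicate 1 and Smad3 without replicate 2, by DESeq2. Reversed, by edgeR and DESeq2, were Smad7 (0.021 and 0.018) and Skil (-0.11 and -0.11) without Msi2 -/- replicate 1, Tgfbr2 (-0.041 and -0.038) without Msi2 -/- replicate 2, and Skil (-0.054 and -0.049) without control 2; the cause was not tested. By edgeR, leaving out each library moved the log2 fold changes from -0.53 to 0.021 for Smad7, from -0.11 to 0.27 for Skil and from -0.041 to 0.71 for Tgfbr2. Members called were 0 higher and 1 lower by DESeq2 and by the likelihood ratio test. With a library left out they ranged from 0 to 2 higher and from 0 to 2 lower. Other pathway genes called were 2 higher and 2 lower by both of these tools, and with a library left out 0 to 4 higher (3 by DESeq2 without control 2) and 0 to 4 lower. Over all genes edgeR called 0 higher and 1 lower. DESeq2 called 414 higher and 362 lower, the likelihood ratio test 120 and 192, limma-voom 0 lower and edgeR without a filter 6 lower. With a library left out, edgeR called 0 to 23 genes higher and 0 to 83 lower, and DESeq2 102 to 302 higher and 93 to 604 lower (289 and 334 without Msi2 -/- replicate 1, 221 and 171 without control 1), a single mouse then standing for its group. Same-numbered libraries deviated with a correlation of 0.04 over genes, which gave no sign that the replicate numbers pair them. With 1 deviation per gene in each group, this value cannot exclude a pairing. The replicate block gave 0 members and 0 genes lower, and 1 residual degree of freedom. With 2 mice a group, edgeR did not call Msi2 itself (adjusted p = 0.122), so a missing call does not show that a gene was equal.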
